A study of Mus musculus with 6 samples.

Results

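The cell cycle and proliferation genes described here are 51 mouse genes chosen by symbol, of the 56691 genes in the count files. All 51 were found there by their Ensembl identifiers, and 44 of them were among the 15662 genes with enough counts to be tested. They fall by their role into 9 genes of G1 and of the entry into S phase, 14 genes of S phase and 28 genes of G2 and mitosis. Total RNA was sequenced from the whole kidneys of 3 cisplatin-treated mice and 3 control mice, with 1 library per mouse. All were C57BL/6 males that were 9 weeks old when they received the first of 4 intraperitoneal injections, of 8 mg/kg cisplatin in the treated mice and of saline (0 mg/kg) in the control mice, and the kidneys were taken at week 7. Cisplatin is a platinum drug that crosslinks DNA and injures the kidney tubule, and its repeated low dosing served the study as a model of chronic kidney disease. A kidney taken at week 7 shows neither the cells that divided earlier nor those that were lost, and only mice alive at that time could be sampled.

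Cells enter the cycle in G1, when D-type cyclins with Cdk4 or Cdk6 and E-type cyclins with Cdk2 phosphorylate the Rb proteins and release the E2F factors, which switch on the genes for DNA replication. The genes of G2 and mitosis are switched on later, by the B-Myb and FoxM1 factors, and are held down in resting cells by the DREAM complex, which binds their promoters at an element called the cell cycle homology region. Tubule cells of the adult kidney rarely divide, re-enter the cycle after injury, and can stop in it when DNA is damaged, a step in which the p53 target Cdkn1a takes part.

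Promoters of a few members are shown because their letters differ by phase and because the results for their genes differ. Promoter windows of 300 bases, from 250 before to 50 after a start site, were given for 40 of the 51 members by RefSeq on GRCm38.p6, an older build than the GRCm39 of the counts. Of the 22 G2 and mitosis members with a window, 17 (77.3%) held both the cell cycle homology region (TTTGAA or TTCGAA) and the CCAAT box that the NF-Y factor binds, counting any window of a gene and either strand. Among S phase members both were found in 3 of 12 (25.0%), in G1 members in 0 of 6, and among all tested genes with a window in 764 of 11215 (6.81%). In the following 5 mitotic promoters, 180 bases from 160 before to 20 after the start, the capitals mark these words on either strand and, in Cdk1, an E2F word. The windows are chr10:69352893-69353072 for Cdk1 on the minus strand, chr11:99024170-99024349 for Top2a on the minus strand, chr9:61946780-61946959 for Kif23 on the minus strand, chr4:118437324-118437503 for Cdc20 on the minus strand and chr9:70421535-70421714 for Ccnb2 on the minus strand.
Cdk1: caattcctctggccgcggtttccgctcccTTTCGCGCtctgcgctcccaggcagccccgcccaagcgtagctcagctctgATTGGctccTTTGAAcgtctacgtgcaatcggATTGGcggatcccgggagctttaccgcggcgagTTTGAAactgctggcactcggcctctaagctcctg
Top2a: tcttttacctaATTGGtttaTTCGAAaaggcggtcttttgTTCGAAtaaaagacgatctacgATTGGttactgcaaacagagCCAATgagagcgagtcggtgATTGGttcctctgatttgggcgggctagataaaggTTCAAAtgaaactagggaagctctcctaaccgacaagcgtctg
Kif23: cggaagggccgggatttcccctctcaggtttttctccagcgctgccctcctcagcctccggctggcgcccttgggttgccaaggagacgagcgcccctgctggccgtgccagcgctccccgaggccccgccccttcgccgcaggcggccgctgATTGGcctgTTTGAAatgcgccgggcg
Cdc20: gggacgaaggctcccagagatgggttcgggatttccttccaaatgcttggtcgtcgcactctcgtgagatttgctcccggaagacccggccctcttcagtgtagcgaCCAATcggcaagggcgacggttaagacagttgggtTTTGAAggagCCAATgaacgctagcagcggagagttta
Ccnb2: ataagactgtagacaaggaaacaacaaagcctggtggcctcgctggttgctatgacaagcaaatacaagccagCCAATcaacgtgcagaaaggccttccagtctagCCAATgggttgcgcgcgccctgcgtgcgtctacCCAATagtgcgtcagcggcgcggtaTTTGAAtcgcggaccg
The homology region nearest the start began at position -15 in Cdk1, -18 in Cdc20, -23 in Top2a, 3 in Kif23 and 5 in Ccnb2, and a CCAAT box lay 5′ of it in each, beginning at -48, -53, -58, -7 and -21 in the same order. Positions count along the gene's strand, with -1 the base before the start.

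S phase promoters held the E2F word more often. TTTGGCGC, TTTCGCGC or GGCGGGAA was present in 6 of 12 S phase windows, in 1 of 22 of G2 and mitosis, in 0 of 6 of G1, and in 700 of 11215 tested genes (6.24%). The words of the first 2 kinds can overlap each other on opposite strands, as they do in Mcm5 and in Mcm6 below, where the capitals mark E2F words and CCAAT boxes. The windows are chr8:75109349-75109528 for Mcm5 on the plus strand, chr1:128359686-128359865 for Mcm6 on the minus strand and chr7:102441535-102441714 for Rrm1 on the plus strand.
Mcm5: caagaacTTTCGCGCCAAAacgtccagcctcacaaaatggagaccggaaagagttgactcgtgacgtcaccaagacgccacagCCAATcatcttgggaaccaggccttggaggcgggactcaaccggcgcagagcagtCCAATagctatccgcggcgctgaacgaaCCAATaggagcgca
Mcm6: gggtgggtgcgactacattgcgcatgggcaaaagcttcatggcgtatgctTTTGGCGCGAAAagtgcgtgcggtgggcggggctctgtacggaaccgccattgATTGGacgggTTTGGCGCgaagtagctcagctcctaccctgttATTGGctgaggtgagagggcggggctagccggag
Rrm1: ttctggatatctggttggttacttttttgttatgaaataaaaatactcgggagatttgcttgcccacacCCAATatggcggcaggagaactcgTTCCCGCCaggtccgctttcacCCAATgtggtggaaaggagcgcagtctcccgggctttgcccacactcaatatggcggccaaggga
Mcm5 and Rrm1 were called higher in the cisplatin-treated kidney and Mcm6 was not, as given with their values later on. Over the whole promoter table of 27025 genes the homology region was found in 21.7%, the CCAAT box in 41.1%, the E2F word in 3.39% and the first 2 together in 8.61%. A match is a description of the letters and not evidence of a bound factor.

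**Figure D1:**
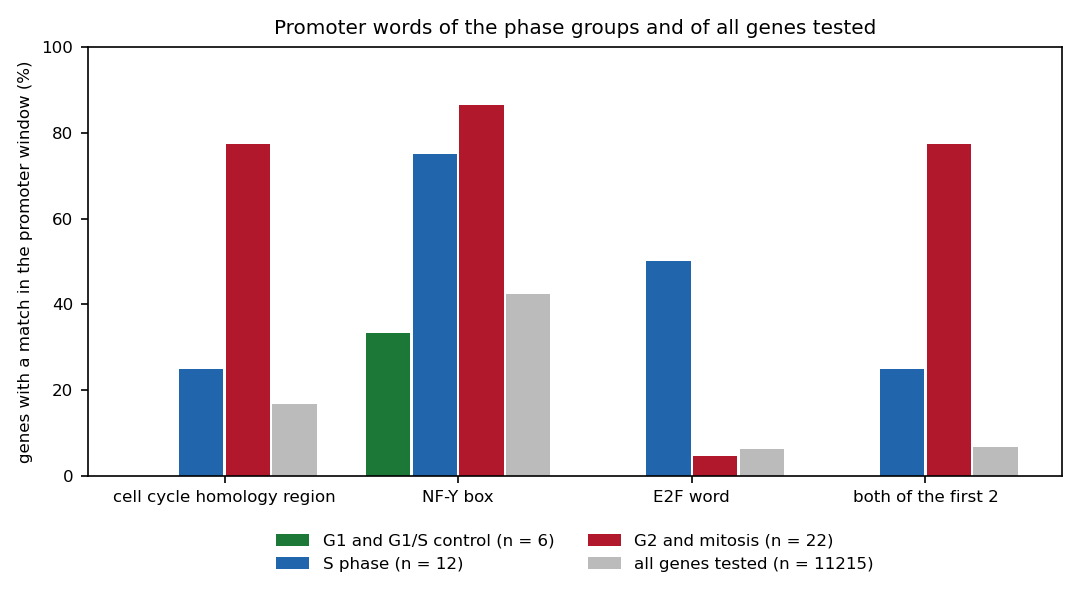
Share of genes (y axis, percent) whose promoter window holds each word (x axis), for the members of the 3 phase groups and for all tested genes with a window; n is the number of genes with a window, and the NF-Y box is CCAAT. The first word and the pair of the first 2 were found in 77.3% of G2 and mitosis members, and the E2F word in 6 of 12 S phase members.

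Counted read pairs numbered 21891855 to 25356523 in the cisplatin libraries and 24111688 to 26627554 in the control libraries. Levels are given as CPM, counts relative to the library size after scaling with TMM factors. A gene was called higher or lower at a Benjamini-Hochberg adjusted p under 0.05 over all 15662 genes in the quasi-likelihood test of edgeR, and SE is the standard error of the log2 fold change. Replicates are separate mice. Kidney identity was evident in both groups from 10 proximal tubule markers, which summed to 5027 to 5327 CPM in the cisplatin libraries and to 36022 to 36446 CPM in the control libraries. A large part of the control sum was Kap alone, with a mean of 280 CPM in the cisplatin libraries and 21207 CPM in the control libraries. The cisplatin libraries differed more among themselves than the control libraries did, pairs of libraries giving a chi-square of 11.9 to 36.1 for each gene in cisplatin and of 4.54 to 6.54 in control. Cisplatin replicate 1 had 9.32% of its read pairs outside annotated exons of the transcript strand, above the 6.63% and 6.09% of the other 2 cisplatin libraries and the 4.63% to 4.86% of the control libraries.

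More members were called higher than lower in the cisplatin-treated kidney. Of 44 tested members, 12 were called higher (27.3%), 1 lower and 31 in neither direction, where 24.5% of all tested genes were called higher, 22.8% lower and 47.4% in either direction. The share of members called higher was thus near that of all genes, and the share called lower was below it. The median log2 fold change of the members was 0.40, against 0.05 for all tested genes, and 34 of the 44 values were positive. Among the positive ones are 5 members that reached the low-count filter level in every cisplatin library but not in every control library. They are Cdc6, Foxm1, Aurka, Birc5 and Ube2c, and their sign is no support for a rise. With at least 10 counts required in every library the members' median was 0.39. Without cisplatin replicate 1 the members' median was 0.24, which stood 0.21 above that of all genes. Cisplatin libraries lay above all control libraries for 16 members and below them for 2, Mcm6 and Nusap1, and the groups overlapped for the other 26; among all tested genes, 30.2% had all cisplatin libraries above and 27.6% all below, 57.8% together. In whole kidney RNA, fewer cells of a type and less RNA per cell cannot be told apart, nor can more dividing cells and more RNA per dividing cell. Scaling by library totals alone gave 29 members higher and 0 lower, but it also moved the median of all tested genes to 0.48, with 8508 genes higher and 1375 lower, against 3841 and 3578 with TMM factors. Upper-quartile factors gave 4774 and 2890 over all genes. Relative to the median of all genes the members' median stood 0.35 higher with TMM factors and 0.36 higher with library totals.

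The 3 phase groups differed in how many members were called. In S phase 7 of 12 tested members were higher (58.3%) and 0 lower in edgeR (1, Mcm6, at an unadjusted p under 0.05; 0 in DESeq2), with a median log2 fold change of 0.46. In G2 and mitosis 4 of 24 were higher (16.7%) and 1 lower, with a median of 0.40, and in G1 1 of 8 was higher (12.5%) and 0 lower, also at an unadjusted p under 0.05, with a median of 0.18. Of all tested genes 24.5% were higher and 22.8% lower, so in G2 and mitosis and in G1 the share called higher was below that of all genes. Aurka, Birc5, Ube2c and Foxm1 of G2 and mitosis passed the low-count filter through the cisplatin libraries, as did Cdc6 of S phase, which is among its members called higher. With at least 10 counts required in every library the medians were 0.46 in S phase, 0.35 in G2 and mitosis and 0.21 in G1. The difference between the phase groups was not tested. Without cisplatin replicate 1, or without control replicate 1, 2 or 3, 2 members of G2 and mitosis were called higher, and without cisplatin replicate 3, 2 members of G1 were higher and 1 of S phase, Tyms, was lower. The median count of a member in a library was 115 in S phase, 318 in G1 and 24 in G2 and mitosis. In G2 and mitosis, which had the lowest median, 25 of 28 members stayed under 100 counts in every library. The part of depth in the shares called was not tested. Among the 22 tested members with the higher mean levels 10 were called, with a median standard error of 0.15 on the log2 scale, and among the 22 with the lower levels 3 were called, with a median standard error of 0.29. Without cisplatin replicate 1 the medians were 0.44 in S phase, 0.18 in G2 and mitosis, 0.05 in G1 and 0.03 over all genes.

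**Figure D2:**
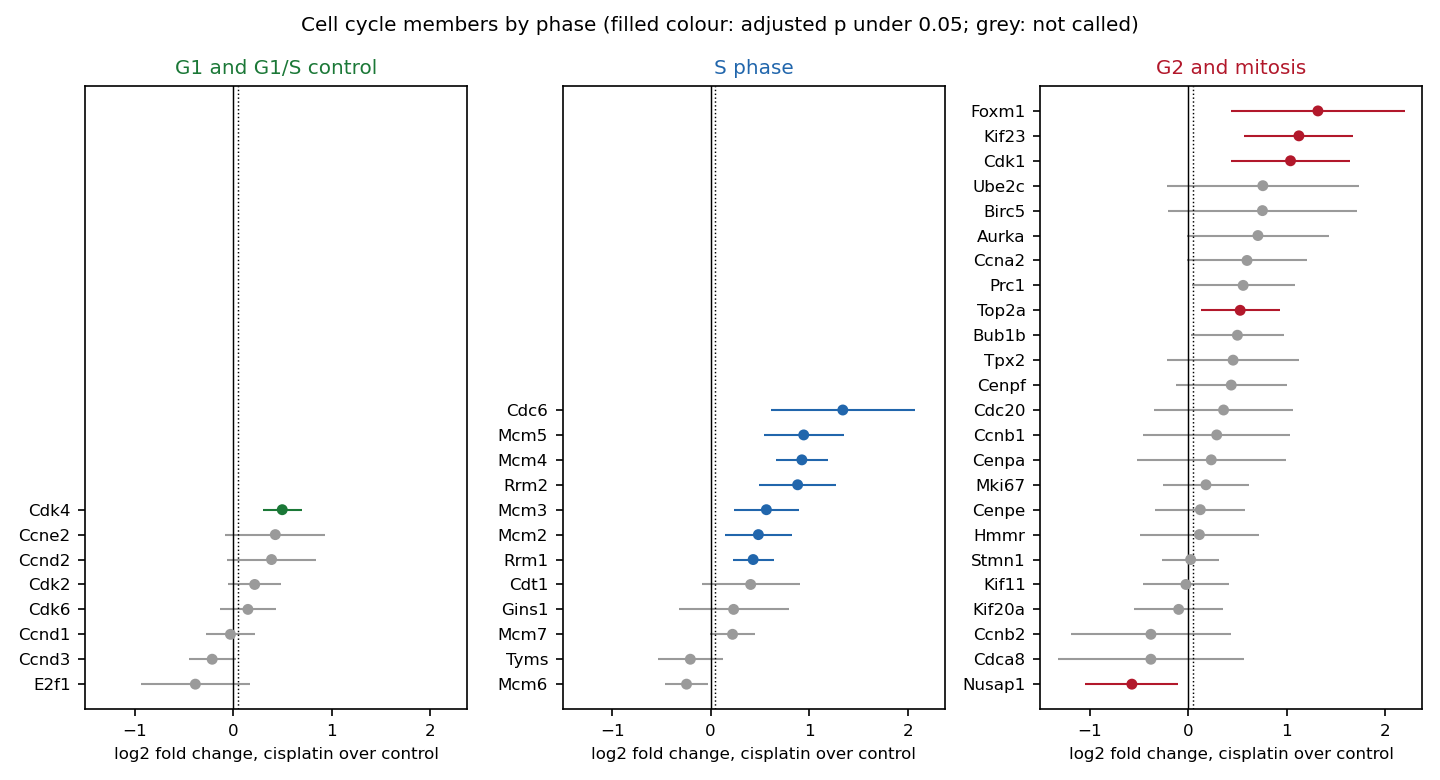
Log2 fold change of each tested member, cisplatin-treated over control kidney (x axis; edgeR, n = 3 each), with its 95% interval, in 3 panels by phase; coloured members were called at an adjusted p under 0.05, grey ones were not, and the dotted line is the median of all tested genes, 0.05. Called S phase members run from 0.43 for Rrm1 to 1.34 for Cdc6, and most intervals in the G2 and mitosis panel cross 0.

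Summed over its 14 members, S phase reached 88.3, 91.5 and 87.6 CPM in the cisplatin libraries, against 69.4, 71.2 and 75.6 CPM in the control libraries. G2 and mitosis summed to 57.1, 45.4 and 47.5 CPM in the cisplatin libraries, against 42.5, 39.7 and 42.6 CPM in the control libraries. The G1 sum was 232, 238 and 198 CPM in the cisplatin libraries, against 218, 202 and 205 CPM in the control libraries. Neither the S phase nor the mitotic sums of the groups overlapped, whereas the G1 sums did, and cisplatin replicate 1 alone stood far above the others in the mitotic sum. The most abundant members by CPM were Ccnd1 in G1 and Stmn1 in mitosis in both groups, and in S phase Mcm7 in the cisplatin kidney and Mcm6 in the control kidney.

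**Figure D3:**
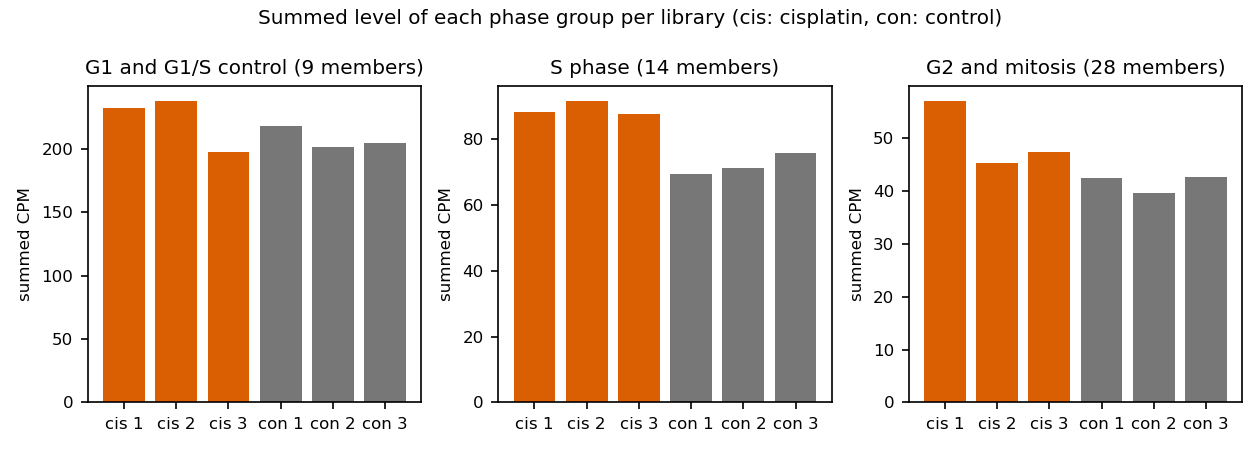
Summed CPM (y axis) of the members of each phase group in every library (x axis), cisplatin (cis, orange) left of control (con, grey). The cisplatin bars are 87.6 to 91.5 CPM in S phase, against 69.4 to 75.6 CPM for control, and cisplatin replicate 1 is the highest bar in G2 and mitosis at 57.1 CPM.

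Within S phase, the genes of the MCM helicase, the ring of 6 subunits that unwinds DNA at the replication fork, did not move as a unit. Mcm4 (chromosome 16, GRCm39 15440211 to 15455264) had 10.5, 11.3 and 11.3 CPM in the cisplatin libraries, against 5.13, 6.43 and 5.92 CPM in the control libraries. Its lowest cisplatin value was above its highest control value, and the fold was 1.90 (95% interval 1.58 to 2.28; log2 fold change 0.93, SE 0.120, edgeR adjusted p = 0.000121). Mcm5 (chromosome 8, 75836140 to 75856231) had 6.30, 5.26 and 4.10 CPM in the cisplatin libraries, against 3.03, 2.48 and 2.64 CPM in the control libraries. The groups did not overlap, and the log2 fold change was 0.94 (SE 0.184, edgeR adjusted p = 0.00173). Mcm3 (chromosome 1, 20870791 to 20890536) had 4.86, 5.23 and 4.89 CPM in the cisplatin libraries, against 2.98, 3.21 and 3.94 CPM in the control libraries, a log2 fold change of 0.57 (SE 0.149, edgeR adjusted p = 0.00988). Mcm2 (chromosome 6, 88860452 to 88875762) had 8.54, 8.51 and 6.11 CPM in the cisplatin libraries, against 5.09, 5.89 and 5.67 CPM in the control libraries, a log2 fold change of 0.48 (SE 0.153, edgeR adjusted p = 0.0238). Cisplatin replicate 3 was close to the control libraries for Mcm2 and well above them for Mcm3. The Mcm2 call was lost without cisplatin replicate 1 or 2 or control replicate 1 or 3 (adjusted p = 0.0633, 0.0906, 0.0956 and 0.0617 from edgeR), and the Mcm3 call without control replicate 1 (adjusted p = 0.0538 from edgeR).

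The other 2 subunits, which had the highest levels per length of the 6, did not pass the test. Mcm6 (chromosome 1, 128259311 to 128287516) had 12.5, 13.04 and 12.3 CPM in the cisplatin libraries, against 14.9, 13.9 and 15.9 CPM in the control libraries, with every cisplatin library below every control library. Its log2 fold change was -0.24 (95% interval -0.46 to -0.03, adjusted p = 0.0594 from edgeR), and with DESeq2 size factors it was called lower (adjusted p = 0.0399 from edgeR). Mcm7 (chromosome 5, 138162844 to 138170684) had 15.05, 15.4 and 16.3 CPM in the cisplatin libraries, against 12.1, 13.6 and 14.4 CPM in the control libraries. The groups did not overlap for Mcm7 either, in the other direction, with a log2 fold change of 0.22 (95% interval of the fold 0.997 to 1.36, adjusted p = 0.0970 from edgeR). Mcm7 was called higher with upper-quartile factors and with library totals (adjusted p = 0.0309 and 0.000900 from edgeR). Per kilobase of exon, the means in the cisplatin and control kidneys were 2.78 and 2.38 CPM for Mcm7, 2.32 and 2.75 for Mcm6, 2.07 and 1.09 for Mcm4, 0.975 and 0.701 for Mcm2, 0.797 and 0.540 for Mcm3, and 0.764 and 0.398 for Mcm5. The level of Mcm4 per kilobase thus came nearer to those of Mcm6 and Mcm7 in the cisplatin kidney. Mcm7 shares 3.07% of its exon bases with the microRNA genes Mir25 and Mir93 inside it.

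**Figure D4:**
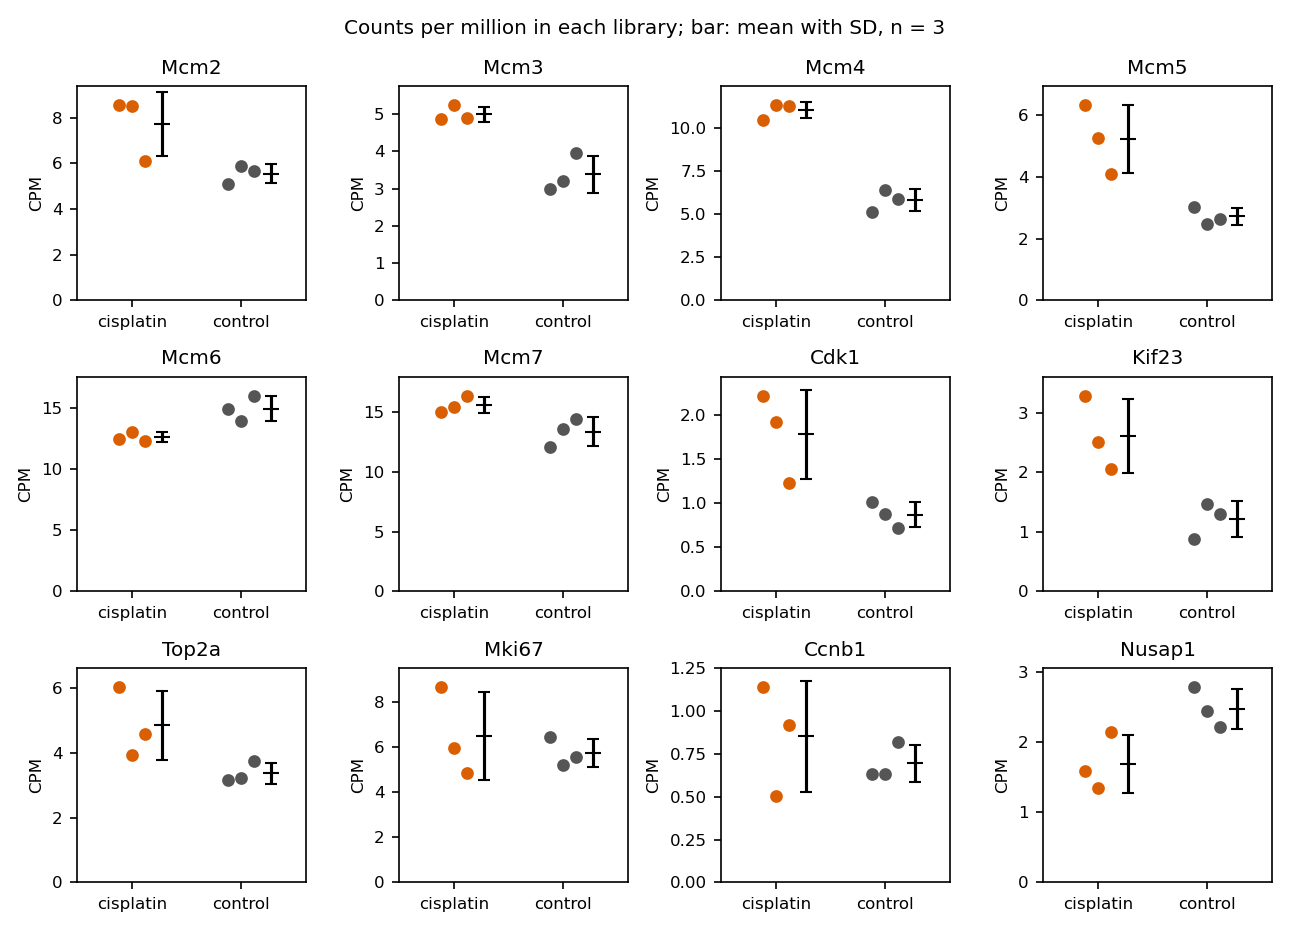
CPM of 12 members (y axis, from 0) in each library, cisplatin (orange) left of control (grey), with the mean and SD of each group beside its points (n = 3 each). Mcm4 and Mcm5 show a clear gap between the groups, Mcm6 lies lower in cisplatin, and cisplatin replicate 1 (leftmost point) is highest for Mki67, Top2a, Kif23 and Cdk1.

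Of the enzyme ribonucleotide reductase, which makes the DNA building blocks, the genes of the large subunit and of the S phase small subunit were higher. Rrm1, the large subunit (chromosome 7, 102090890 to 102119709), had 14.7, 14.9 and 15.3 CPM in the cisplatin libraries, against 10.6, 11.2 and 11.5 CPM in the control libraries. Rrm2, the small subunit that is made in S phase (chromosome 12, 24757811 to 24764145), had 4.82, 4.16 and 3.36 CPM in the cisplatin libraries, against 2.35, 2.09 and 2.26 CPM in the control libraries. For neither gene did the groups overlap, and the log2 fold changes were 0.43 (SE 0.0942, edgeR adjusted p = 0.00344) and 0.88 (SE 0.177, edgeR adjusted p = 0.00206), in the same order. Rrm2b, the p53-induced alternative small subunit and no member, had a log2 fold change of -0.60 (SE 0.105, edgeR adjusted p = 0.000908), with every cisplatin library below every control library. Tyms, thymidylate synthase, had 6.82, 9.28 and 10.4 CPM in the cisplatin libraries, against 10.1, 10.03 and 10.3 CPM in the control libraries. Its groups overlapped, with a log2 fold change of -0.21 (95% interval of the fold 0.690 to 1.09, adjusted p = 0.275 from edgeR), and without cisplatin replicate 3 it was called lower (adjusted p = 0.0478 from edgeR). The annotation names pseudogenes of Tyms, Ccnd3, Ccnb1 and Ccnb2, with which reads could be shared.

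Cdc6, which loads the helicase onto replication origins (chromosome 11, 98798507 to 98814766), had the largest log2 fold change of the S phase members, 1.34 (SE 0.331, edgeR adjusted p = 0.00689), on few reads. It had 22, 20 and 13 counts in the cisplatin libraries, against 5, 6 and 6 counts in the control libraries. It passed the low-count filter through the cisplatin libraries, as did Foxm1, so these 2 had to differ to be tested at all, while the other 10 members called higher passed the filter level in every control library. In DESeq2 the Cdc6 call was lost (adjusted p = 0.0568 from DESeq2). Cdt1, its partner in origin licensing, had a log2 fold change of 0.41 (95% interval -0.09 to 0.90, adjusted p = 0.161 from edgeR), and Gins1, a subunit of the GINS complex of the active helicase, one of 0.23 (95% interval -0.33 to 0.79, adjusted p = 0.476 from edgeR). The E2F repressors E2f7 and E2f8 had at most 13 counts in any library and were not tested.

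Most mitotic members were measured at low levels, and those that define a dividing cell did not move alike. Mki67, the proliferation marker Ki-67 (chromosome 7, 135291513 to 135318299), had 8.64, 5.96 and 4.84 CPM in the cisplatin libraries, against 6.43, 5.21 and 5.58 CPM in the control libraries. The groups overlapped, with the highest and the lowest of the 6 values both in cisplatin libraries, and the log2 fold change was 0.18 (95% interval -0.26 to 0.62, adjusted p = 0.478 from edgeR). Top2a, the topoisomerase that untangles sister chromatids (chromosome 11, 98883769 to 98915062), had 6.03, 3.95 and 4.58 CPM in the cisplatin libraries, against 3.15, 3.21 and 3.75 CPM in the control libraries. Its groups did not overlap, but the margin was narrow, with 3.95 CPM in cisplatin replicate 2 and 3.75 CPM in control replicate 3. The log2 fold change was 0.53 (SE 0.182, edgeR adjusted p = 0.0344). The Top2a call was lost in DESeq2 (adjusted p = 0.0631 from DESeq2), without cisplatin replicate 1 (adjusted p = 0.118 from edgeR) and without control replicate 1, 2 or 3 (adjusted p = 0.111, 0.102 and 0.0510 from edgeR).

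Cdk1 and Kif23 were the mitotic members whose calls held in every alternative run. Cdk1, the kinase that drives entry into mitosis (chromosome 10, 69170976 to 69236595), had 2.20, 1.91 and 1.22 CPM in the cisplatin libraries, against 1.01, 0.877 and 0.721 CPM in the control libraries. Every cisplatin value was above every control value, although replicate 3 lay close to them, and the fold was 2.05 (95% interval 1.35 to 3.12; log2 fold change 1.04, SE 0.272, edgeR adjusted p = 0.00952). Kif23, a kinesin of the midzone where the cell divides (chromosome 9, 61823187 to 61854074), had 3.27, 2.51 and 2.05 CPM in the cisplatin libraries, against 0.883, 1.46 and 1.30 CPM in the control libraries. Its fold was 2.18 (95% interval 1.48 to 3.20; log2 fold change 1.12, SE 0.250, edgeR adjusted p = 0.00385), with no overlap. The cyclins that act with Cdk1 were not called: Ccnb1 had a log2 fold change of 0.29 (95% interval -0.46 to 1.04, adjusted p = 0.503 from edgeR). For Ccnb2 it was -0.38 (95% interval -1.19 to 0.43, adjusted p = 0.418 from edgeR), and for Ccna2, which also acts in S phase, 0.60 (95% interval -0.01 to 1.20, adjusted p = 0.0953 from edgeR). Ccnb1 ran from 0.503 to 1.14 CPM in the cisplatin libraries and from 0.631 to 0.818 CPM in the control libraries, so the cisplatin range enclosed the control range.

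Foxm1, the forkhead factor that switches on mitotic genes (chromosome 6, 128339518 to 128353147), had 27, 28 and 9 counts in the cisplatin libraries, against 8, 6 and 6 counts in the control libraries. Replicate 3 was near the control libraries, and the log2 fold change was 1.32 (SE 0.398, edgeR adjusted p = 0.0192). This call was lost in DESeq2 (adjusted p = 0.0569 from DESeq2), without cisplatin replicate 1 (adjusted p = 0.0571 from edgeR) and without control replicate 1, 2 or 3 (adjusted p = 0.0505, 0.0622 and 0.0641 from edgeR). Foxm1 shares 2.31% of its exon bases with other genes on its strand. Nusap1, which bundles spindle microtubules (chromosome 2, 119448779 to 119481725), was the only member called lower, with 1.58, 1.34 and 2.14 CPM in the cisplatin libraries, against 2.77, 2.43 and 2.21 CPM in the control libraries. The gap between the groups was narrow, and the log2 fold change was -0.57 (SE 0.213, edgeR adjusted p = 0.0470). The Nusap1 call was lost in DESeq2 (adjusted p = 0.0822 from DESeq2), with upper-quartile factors (adjusted p = 0.0841 from edgeR) and with library totals (adjusted p = 0.544 from edgeR). It was also lost with at least 10 counts required in every library (adjusted p = 0.0515 from edgeR), without cisplatin replicate 1 or 2 (adjusted p = 0.0921 and 0.160 from edgeR) and without control replicate 1, 2 or 3 (adjusted p = 0.158, 0.0932 and 0.0649 from edgeR).

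The remaining 19 tested genes of G2 and mitosis, among them Mki67 and the cyclins above, were called in neither direction. The spindle checkpoint kinase Bub1b had a log2 fold change of 0.50 (95% interval 0.03 to 0.97, adjusted p = 0.0771 from edgeR), the midzone protein Prc1 one of 0.56 (95% interval 0.04 to 1.08, adjusted p = 0.0744 from edgeR) and the mitotic kinase Aurka one of 0.71 (95% interval -0.01 to 1.43, adjusted p = 0.0962 from edgeR). Prc1 was the 1 uncalled mitotic member with all cisplatin libraries above all control libraries, and it was called higher with upper-quartile factors, with strand ignored and with at least 10 counts in every library (adjusted p = 0.0428, 0.0163 and 0.0454 from edgeR). At the other end the spindle motor Kif11 had -0.02 (95% interval -0.46 to 0.42) and the kinesin Kif20a -0.10 (95% interval -0.55 to 0.36), which as folds run from 0.726 to 1.33 and from 0.683 to 1.28. The survivin gene Birc5 and the ubiquitin-conjugating enzyme Ube2c, which helps the cell to leave mitosis, had log2 fold changes of 0.75 and 0.76 with intervals from -0.20 to 1.71 and from -0.21 to 1.73, on 28 counts or fewer per library. Stmn1, a microtubule-destabilising protein with 195 to 288 counts per library, was the best measured uncalled one at 0.03 (95% interval -0.26 to 0.31, adjusted p = 0.887 from edgeR). Aurkb, Plk1, Bub1 and Mybl2 had at most 19 counts in any library and were not tested, and without the low-count filter none of them, nor Ccne1, E2f7 or E2f8, was called (lowest adjusted p = 0.171 from edgeR, for E2f8).

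In G1, Cdk4, the kinase partner of the D-type cyclins (chromosome 10, 126895180 to 126903789), was the gene called. It had 38.8, 41.4 and 44.5 CPM in the cisplatin libraries, against 30.2, 27.5 and 30.5 CPM in the control libraries, which did not overlap. The fold was 1.41 (95% interval 1.23 to 1.62; log2 fold change 0.50, SE 0.0887, edgeR adjusted p = 0.000975). Its partner Ccnd1, cyclin D1 (chromosome 7, 144483668 to 144493662), had the highest level per length of all members, 22.0 CPM per kilobase of exon in the cisplatin kidney and 22.5 in the control kidney. In CPM it had 104, 121 and 91.2 in the cisplatin libraries, against 117, 101 and 104 in the control libraries, a log2 fold change of -0.03 (95% interval -0.28 to 0.22, adjusted p = 0.857 from edgeR). The groups overlapped fully, and with scaling by library totals alone the sign turned, to 0.40 (adjusted p = 0.0407 from edgeR).

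The other D-type cyclins and the later G1 genes were not called. Ccnd2 had 25.0, 18.1 and 12.1 CPM in the cisplatin libraries, against 14.6, 14.0 and 13.6 CPM in the control libraries, a log2 fold change of 0.39 (95% interval -0.07 to 0.84, adjusted p = 0.143 from edgeR). Cisplatin replicate 3 lay below all control libraries and replicate 1 far above them, and without cisplatin replicate 3 Ccnd2 was called higher (adjusted p = 0.00255 from edgeR), as it was without the low-count filter (adjusted p = 0.00807 from edgeR). Ccnd3 had a log2 fold change of -0.21 (95% interval -0.45 to 0.03, adjusted p = 0.129 from edgeR), Cdk6, the other cyclin D kinase, 0.15 (95% interval -0.14 to 0.44, adjusted p = 0.366 from edgeR), and Cdk2, the cyclin E kinase, 0.22 (95% interval -0.05 to 0.49, adjusted p = 0.164 from edgeR). For cyclin E2, Ccne2, it was 0.43 (95% interval -0.08 to 0.94, adjusted p = 0.149 from edgeR), and for the transcription factor E2f1 -0.38 (95% interval -0.93 to 0.17, adjusted p = 0.226 from edgeR). Ccne2 and Cdk2 had all cisplatin libraries above all control libraries without passing the test.

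**Figure D5:**
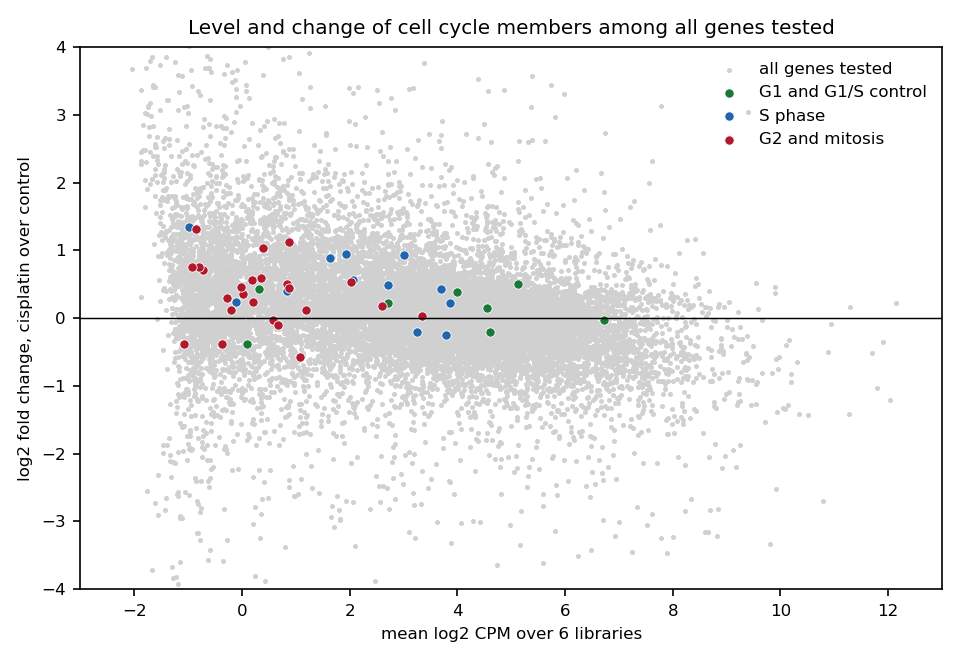
Log2 fold change, cisplatin-treated over control kidney (y axis), against the mean log2 CPM over the 6 libraries (x axis) for all 15662 tested genes (grey) and the 44 tested members coloured by phase. The members lie between -0.57 and 1.34, and most G2 and mitosis genes sit at the left, at low levels; 59 genes above the axis and 55 below it are outside the plot, none of them members.

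Cisplatin replicate 1 was the highest of the 3 cisplatin libraries for 15 of the 24 tested G2 and mitosis members, for 4 of 12 S phase members and for 5768 of all 15662 tested genes. The same library had the highest sum of 8 fibroblast markers, 713 CPM against 466 and 446 CPM in the other 2 cisplatin libraries, and of 10 macrophage markers, 238 CPM against 203 and 194 CPM. It was also the highest of the 3 for T cell markers, 7.95 CPM against 7.24 and 6.19 CPM, and for endothelial markers, 276 CPM against 239 and 229 CPM. For the remaining marker lists it was not the highest. Between the groups, the fibroblast markers summed to 446 to 713 CPM in the cisplatin libraries and to 239 to 289 CPM in the control libraries, with 6 of 8 called higher. The macrophage markers summed to 194 to 238 CPM in the cisplatin libraries and to 81.4 to 97.4 CPM in the control libraries, with 9 of 10 called higher. Markers of injured tubule cells, among them Havcr1 and Krt20, rose in all 10 genes, to 2620 to 2887 CPM in sum in the cisplatin libraries, against 413 to 451 CPM in the control libraries. Krt20 (2, 5 and 4 control counts), Sox9 and Lcn2, and Itgam of the macrophage markers, passed the low-count filter through the cisplatin libraries. Their calls are thus no independent support for a rise. Of all tested genes 24.5% were called higher and 22.8% lower. The part of these cells in the members' values was not tested.

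Markers of blood cells moved in both directions. For the counts called below, the shares over all tested genes were 24.5% higher and 22.8% lower. T cell markers summed to 6.19 to 7.95 CPM in the cisplatin libraries and to 3.08 to 3.99 CPM in the control libraries, with 4 of 6 tested called higher. Among those called, Cd3g and Cd8a passed the low-count filter through the cisplatin libraries. Of 7 neutrophil markers 2 were tested, and both were called higher; the sum was 3.20 to 3.80 CPM in the cisplatin libraries and 1.81 to 1.95 CPM in the control libraries, and Ly6g, Mpo and Elane had 0 counts in every library. The B and plasma cell sum was 27.5 to 40.1 CPM in the cisplatin libraries and 37.8 to 69.3 CPM in the control libraries, with 1 of 4 tested higher and 2 lower. The erythroid sum was 142 to 234 CPM in the cisplatin libraries and 124 to 250 CPM in the control libraries, with 0 of 5 tested called in edgeR and 1 at an unadjusted p under 0.05. Endothelial markers summed to 229 to 276 CPM in the cisplatin libraries and to 317 to 327 CPM in the control libraries, with 3 of 8 called lower. All 10 proximal tubule markers were called lower. The part of these cells was not tested either.

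Other genes of the replication machinery were called higher more often than lower, but their summed level did not separate the groups. Of 33 tested genes on a list of 34, 13 were called higher (39.4%), 3 lower (9.09%) and 17 in neither direction. Of all tested genes 24.5% were higher and 22.8% lower. The median log2 fold change of the list was 0.30, against 0.05 for all genes, and upper-quartile factors gave 15 higher and 2 lower. All 34 genes summed to 231, 248 and 260 CPM in the cisplatin libraries, against 240, 240 and 239 CPM in the control libraries. Those that rose with the smallest adjusted p were Chaf1b, a subunit of the factor that places histones on new DNA, Gins2 of the GINS complex, Lig1, the ligase that joins Okazaki fragments, and Uhrf1, which carries DNA methylation over to new strands. Chaf1b had 2.72, 2.65 and 2.27 CPM in the cisplatin libraries, against 0.589, 0.877 and 0.914 CPM in the control libraries, a log2 fold change of 1.69 (SE 0.225, edgeR adjusted p = 0.000135). Gins2 had one of 1.36 (SE 0.204, edgeR adjusted p = 0.000303), Lig1 one of 1.06 (SE 0.167, edgeR adjusted p = 0.000432) and Uhrf1 one of 1.81 (SE 0.301, edgeR adjusted p = 0.000626). Pcna, the sliding clamp of the polymerases, had 24.1, 27.1 and 25.3 CPM in the cisplatin libraries, against 20.1, 20.8 and 21.3 CPM in the control libraries, a log2 fold change of 0.30 (SE 0.0876, edgeR adjusted p = 0.0163). The Pcna call was lost in DESeq2 (adjusted p = 0.0646 from DESeq2), with strand ignored (adjusted p = 0.0784 from edgeR), and without cisplatin replicate 2 or control replicate 1, 2 or 3 (adjusted p = 0.0619, 0.0815, 0.0621 and 0.0530 from edgeR).

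Among the replication genes that fell were Mcm10 and Gmnn. Mcm10, which helps to start the fork, had 1.27, 2.01 and 1.31 CPM in the cisplatin libraries, against 3.66, 3.21 and 3.41 CPM in the control libraries, a log2 fold change of -1.15 (SE 0.206, edgeR adjusted p = 0.000998). Every cisplatin value of Mcm10 lay far under every control value. Gmnn, geminin, the inhibitor of Cdt1, had a log2 fold change of -0.50 (SE 0.163, edgeR adjusted p = 0.0262). Its call was lost without cisplatin replicate 2 or control replicate 1 or 3 (adjusted p = 0.0978, 0.0664 and 0.106 from edgeR), with upper-quartile factors (adjusted p = 0.0571 from edgeR) and with library totals (adjusted p = 0.692 from edgeR). Without cisplatin replicate 3, 5 replication genes were called lower.

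Of 40 tested genes on a list of 50 other genes of mitosis and cytokinesis, 9 were called higher (22.5%) and 5 lower (12.5%), against 24.5% and 22.8% of all tested genes, so the share called higher was near that of all genes. Their median log2 fold change was 0.46, and 0.22 with at least 10 counts required in every library; library totals gave 23 higher and 2 lower. Ckap2, a microtubule-associated protein of the spindle, had 2.51, 2.95 and 2.01 CPM in the cisplatin libraries, against 0.462, 0.390 and 0.337 CPM in the control libraries, a log2 fold change of 2.64 (SE 0.264, edgeR adjusted p = 1.94e-05). It had 11, 8 and 7 counts in the control libraries and passed the low-count filter through the cisplatin libraries. Ccnf (7, 4 and 4 control counts) and Dlgap5 (8, 7 and 7), also called higher, passed it in the same way. Such genes had to differ to be tested at all. Hjurp, the chaperone that places Cenpa at centromeres, had a log2 fold change of 0.80 (SE 0.116, edgeR adjusted p = 0.000252), while Cenpa itself, a member, had 0.23 (95% interval -0.52 to 0.99, adjusted p = 0.596 from edgeR). Anln, anillin of the contractile ring, had one of 1.36 (SE 0.222, edgeR adjusted p = 0.000552), and Cdc25b, a phosphatase that activates Cdk1, one of 0.92 (SE 0.152, edgeR adjusted p = 0.000615).

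Lower in the cisplatin-treated kidney on the same list were Cks2, Ect2, Nek2, Spc25 and Smc4. Cks2, a small subunit bound to Cdk1, had 7.44, 8.95 and 11.2 CPM in the cisplatin libraries, against 18.2, 22.2 and 20.01 CPM in the control libraries, a log2 fold change of -1.13 (SE 0.146, edgeR adjusted p = 0.000114). Ect2, which activates the GTPase of the contractile ring, had 2.51, 1.94 and 2.05 CPM in the cisplatin libraries, against 4.37, 3.90 and 4.57 CPM in the control libraries, a log2 fold change of -0.98 (SE 0.164, edgeR adjusted p = 0.000669). For both genes the groups stood apart. Nek2, a centrosome kinase, had a log2 fold change of -0.83 (adjusted p = 0.00555 from edgeR) and Spc25, of the kinetochore, one of -0.69 (adjusted p = 0.00639 from edgeR); with library totals neither was called (adjusted p = 0.123 and 0.180 from edgeR). Kif23 binds Racgap1 in the complex that recruits Ect2, and of these 3 genes Kif23 and Racgap1 were called higher and Ect2 lower.

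The CDK inhibitors were led by Cdkn1a, the p53 target that encodes p21. It had 66.2, 88.1 and 57.7 CPM in the cisplatin libraries, against 3.11, 2.09 and 2.79 CPM in the control libraries, which set the groups far apart, and its log2 fold change was 4.72 (SE 0.194, edgeR adjusted p = 5.66e-08). Of the 8 listed inhibitors 6 were tested and 3 were called higher, Cdkn1a, Cdkn2b (p15) with a log2 fold change of 1.36 (SE 0.176, edgeR adjusted p = 0.000116) and Cdkn1c (p57) with 0.84 (SE 0.113, edgeR adjusted p = 0.000154). Over all tested genes the shares were 24.5% higher and 22.8% lower. Cdkn2c (p18) had -0.34 (adjusted p = 0.0518 from edgeR), the only negative value of the 6, and 1 inhibitor was called lower without cisplatin replicate 2 or 3, against 0 with all libraries. Cdkn2a, which encodes p16, was among the 2 that were not tested for low counts.

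Genes of the Rb, E2F and DREAM complexes, which include repressors and activators of cell cycle promoters, were called at shares near those of all genes. Of 16 tested genes, 3 were called higher (18.8%) and 4 lower (25.0%), against 24.5% and 22.8% of all tested genes. Their median log2 fold change was -0.03, against 0.06 with upper-quartile factors and 0.40 with library totals, and library totals gave 7 higher and 0 lower. Mybl1, A-Myb, had 6.72, 8.61 and 7.63 CPM in the cisplatin libraries, against 1.56, 1.17 and 1.30 CPM in the control libraries, a log2 fold change of 2.50 (SE 0.173, edgeR adjusted p = 1.6e-06). Rb1, the retinoblastoma protein, had a log2 fold change of 0.58 (SE 0.0876, edgeR adjusted p = 0.000322) and Tfdp1, the partner of the E2F factors, one of 0.42 (SE 0.111, edgeR adjusted p = 0.00909). Lower were Rbl2, which encodes p130 (-0.35), E2f5 (-0.48), and the DREAM subunits Lin52 (-0.47) and Rbbp4 (-0.28), with adjusted p from 0.00305 to 0.0171 (edgeR). With library totals none of these 4 was called, Rbl2 and Rbbp4 turned to 0.08 and 0.15, and the Rbbp4 call was also lost with upper-quartile factors and without each control library in turn (adjusted p = 0.0897, 0.0610, 0.0551 and 0.0780 from edgeR).

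Across all tested genes with a promoter window, those that held the promoter words of the mitotic members did not stand far from the rest. Of the 764 genes with both the homology region and a CCAAT box, 26.3% were called higher and 23.4% lower, with a median log2 fold change of 0.08, and of the 10451 without the pair 25.1% and 24.2%, with a median of 0.03. Among the 700 genes with an E2F word 26.6% were called higher and 19.9% lower, and among the 10515 without it 25.0% and 24.5%. These shares are a description and were not tested.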

How the data were processed

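Kidney total RNA of 3 cisplatin-treated and 3 control mice was sequenced as paired reads from stranded libraries. Per the labels and the study's methods, the authors trimmed adapters with Cutadapt, aligned the pairs to the mouse genome (mm39, that is GRCm39) with STAR and deposited raw counts per gene; STAR settings and annotation release: not given in the sources used here. Deposited counts of the transcript strand were used except where strand was ignored (96.7% to 97.2% of stranded counts). Unmapped pairs made up 2.72% to 3.57%, multimapping pairs 11.5% to 12.9%, pairs with no feature 4.63% to 9.32% and ambiguous pairs 1.91% to 2.01% in cisplatin and 1.20% to 1.27% in control libraries; these entries entered no total. Symbols, positions and exon lengths came from GENCODE vM39, which had a record for 56017 of 56691 genes. Total counts of 21891855 to 26627554 pairs per library set the precision, which is low for members with few counts.

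Genes were filtered with filterByExpr (minimum count 10, minimum total 15), scaled with TMM factors (1.05 to 1.26 in cisplatin, 0.844 to 0.894 in control libraries) and compared with edgeR 4.0.16 (quasi-likelihood F test, Benjamini-Hochberg adjusted p under 0.05 over 15662 genes, 4 residual degrees of freedom); log2 CPM used a prior count of 2. Standard errors were the log2 fold change over the root of F, and 95% intervals used the test's total degrees of freedom. Alternatives were DESeq2 1.42.0 (the tool the study used), limma-voom (limma 3.58.1), no low-count filter, scaling by upper-quartile factors, by library totals or by DESeq2 size factors, strand ignored, a minimum of 10 counts in every library, the replicate number as a block, an adjusted p under 0.01 and leaving out each library. Those for the 4 further cell cycle lists (replication, mitosis and cytokinesis, CDK inhibitors, and Rb, E2F and DREAM) were added after seeing the data. The fit was tested on simulated data. Promoter words were searched in RefSeq windows (GRCm38.p6) on both strands.

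The members and lists were chosen with earlier results of these data known. Every member may be named; of the other pathway lists, up to 4 genes per direction with the smallest adjusted p, Cdkn1a and Pcna were named. Havcr1, Krt20, Ly6g, Mpo, Elane, Smc4, Racgap1, Rrm2b, Cdkn2c and Cdkn2a were named outside this rule, after their values were seen. The same holds for Ccnf, Dlgap5, Sox9, Lcn2, Itgam, Cd3g, Cd8a and Kap. Markers of proximal and injured tubule, fibroblast, macrophage, T, B and plasma, neutrophil, erythroid and endothelial cells were summed. Small RNA and chimeric-eCLIP data were not analysed here. The values of 1 gene of the replication list are not reported here. Software was matplotlib 3.10.9, numpy 2.4.6, pandas 2.3.3, Python 3.11.15 and R 4.3.3.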

Additional observations from a re-analysis of the deposited data

How the results depend on the processing

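Of the 1108 values of single genes recomputed under the alternatives, 1028 kept their call. The members called higher, 12 with edgeR and TMM factors, numbered 29 with library totals, 8 to 14 when each library was left out in turn and 9 to 15 under the other alternatives. The 1 lower member became 0 in DESeq2, with upper-quartile factors, library totals, at least 10 counts in every library and an adjusted p under 0.01, 2 with DESeq2 size factors (with Mcm6 among them) and 0 to 2 without single libraries. In G1, 1 higher member became 6 with library totals, 2 without the low-count filter and 1 to 2 without single libraries. S phase had 1 lower member with DESeq2 size factors, against 0, and 0 to 1 without single libraries, while its 7 higher ones numbered 5 to 7 without single libraries. In G2 and mitosis, 4 higher members became 2 in DESeq2, 2 at an adjusted p under 0.01, 13 with library totals and 2 to 5 without single libraries, with 2 each without cisplatin replicate 1 and control replicates 1, 2 and 3. Its 1 lower member became 0 in DESeq2, with upper-quartile factors, library totals, at least 10 counts and an adjusted p under 0.01, and 0 to 1 without single libraries. With library totals the other lists had 26 (replication), 23 (mitosis and cytokinesis), 7 (Rb, E2F and DREAM) and 5 (CDK inhibitors) genes higher, against 13, 9, 3 and 3, and 2 (mitosis and cytokinesis) and 0 (Rb, E2F and DREAM) lower, against 5 and 4. Replication genes called lower, 3 in all libraries, were 2 to 5 without single libraries, and CDK inhibitors called lower, 0 in edgeR and DESeq2 (1, Cdkn2c, at an unadjusted p under 0.05), were 1 in limma-voom, 1 with DESeq2 size factors, 1 with the replicate block and 0 to 1 without single libraries. Library totals reversed Ccnd1 (0.40), Rbl2 (0.082) and Rbbp4 (0.15); that scaling moved the median of all genes to 0.48, against 0.05.

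The labels number the replicates 1 to 3 in both groups. Deviations of same-numbered libraries correlated at 0.133, 0.142 and 0.0997, and every library correlated best with its own number, which is a hint from the data only. With the replicate block, 12 members were higher and 1 lower, 1 in G1, 7 in S phase and 4 in G2 and mitosis higher, and over all genes 4087 higher and 3796 lower. Depth limits the members under 100 counts, 33 of 51, for which a missed call does not show a level that stayed the same.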
